A study of Mus musculus and Homo sapiens with 20 samples.

Results

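Wnt ligands, their Frizzled receptors and the secreted Sfrp and Dkk antagonists were examined as polycomb targets in mouse embryonic stem (mES) cells, mouse bone marrow haematopoietic stem and progenitor cells (HSPCs) and human K562 leukaemia cells. Members were the autosomal protein-coding genes whose symbol was Wnt, Fzd, Sfrp or Dkk followed by a number and, for some, the letter a or b. There were 37 such genes among 20807 autosomal protein-coding genes in mouse, namely 19 Wnt, 10 Fzd, 4 Sfrp and 4 Dkk genes, and 37 among 19111 in human.

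CUT&Tag, which cuts and tags DNA beside an antibody-bound histone mark, gave 20 lists of peak positions, 2 libraries in each of 10 groups. H2AK119ub, the monoubiquitin mark placed by polycomb repressive complex 1 and removed by the PR-DUB deubiquitylase, was profiled in all 3 cell types, and H3K27me3, the methyl mark placed by polycomb repressive complex 2, in the mouse cells. The mES cells were wild-type (WT) or Tet2 knockout (KO), the KO being a gifted line, and both were cultured with LIF, 3 µM CHIR99021, an inhibitor of GSK3 and so itself an activator of Wnt signalling, and 1 µM PD0325901, a MEK inhibitor. The HSPCs were Lin-c-Kit+ marrow cells, selected magnetically, from WT or Tet2 KO mice aged 6 to 8 weeks. K562 cells, a line from chronic myeloid leukaemia, had been nucleofected with control siRNA (siControl) or siRNA against MBD6 (siMBD6), a partner protein of PR-DUB. The study asked how loss of Tet2 and knockdown of MBD6 alter these repressive marks. The methods speak of biological replicates for CUT&Tag in general, but no source says how the libraries of a group divide over cultures or animals, so the spread between them may be partly technical.

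Wnt proteins are secreted, lipid-modified signals that bind Frizzled receptors together with an LRP5 or LRP6 co-receptor and stabilize β-catenin, or signal through other routes. Sfrp proteins bind Wnts through a Frizzled-like domain, and Dkk1 and some of its relatives bind the LRP co-receptors. Many developmental signalling genes are polycomb targets with CpG-rich promoters, held silent in stem cells until a lineage uses them, and Wnt signalling supports self-renewal of mES cells in culture.

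The 250 reference bases upstream of the RefSeq start are shown for 3 members whose promoters were covered throughout by peaks. They are also shown for 3 members that contrast with them. The 3 covered members were those richest in CpG over the 2 kb around the start among fully covered members. Their base composition was thus set by the choice and does not describe covered promoters in general. The RefSeq table for GRCm38.p6 held 25 of the 37 mouse members and had no entry for Wnt5a, Wnt7b, Wnt8a, Wnt10a, Fzd2, Fzd3, Fzd6, Fzd8, Sfrp1, Sfrp4, Dkk3 or Dkk4. Capitals mark CG dinucleotides, which read the same on both strands, and each sequence runs 5′ to 3′ toward its gene. Promoters of Wnt2b (chr3:104961710-104961959, minus strand), Wnt3a (chr11:59290752-59291001, minus strand) and Wnt6 (chr1:74771642-74771891, plus strand) were fully covered in all 16 mouse libraries. Fzd10 (chr5:128600856-128601105, plus strand) had a peak in 12 of the 16, Fzd5 (chr1:64737751-64738000, minus strand) in 14 and Wnt8b (chr19:44493222-44493471, plus strand) in 16. Wnt8b was chosen after its values were seen. Among members in the RefSeq table with a peak in every library, it had the fewest CpG in the 2 kb around the start. The RefSeq starts of Wnt2b and Fzd10 lie 212 and 262 bp inside the GENCODE genes used for coverage.
Wnt2b: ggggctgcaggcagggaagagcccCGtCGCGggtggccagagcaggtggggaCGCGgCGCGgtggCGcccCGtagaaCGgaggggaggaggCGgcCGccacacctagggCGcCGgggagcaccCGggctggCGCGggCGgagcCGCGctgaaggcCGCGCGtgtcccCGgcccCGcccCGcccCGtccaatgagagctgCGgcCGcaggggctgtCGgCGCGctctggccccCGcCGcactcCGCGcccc
Wnt3a: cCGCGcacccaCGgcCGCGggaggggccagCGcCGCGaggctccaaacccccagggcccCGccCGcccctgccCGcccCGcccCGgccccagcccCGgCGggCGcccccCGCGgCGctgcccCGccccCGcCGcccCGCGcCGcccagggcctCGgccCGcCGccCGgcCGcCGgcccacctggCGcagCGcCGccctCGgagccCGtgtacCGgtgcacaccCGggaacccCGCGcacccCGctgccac
Wnt6: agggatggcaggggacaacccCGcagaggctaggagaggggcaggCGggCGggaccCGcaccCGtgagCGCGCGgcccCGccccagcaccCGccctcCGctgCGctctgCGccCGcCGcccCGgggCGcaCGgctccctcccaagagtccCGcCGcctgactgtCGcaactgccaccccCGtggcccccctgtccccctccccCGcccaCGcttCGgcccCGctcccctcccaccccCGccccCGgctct
Fzd10: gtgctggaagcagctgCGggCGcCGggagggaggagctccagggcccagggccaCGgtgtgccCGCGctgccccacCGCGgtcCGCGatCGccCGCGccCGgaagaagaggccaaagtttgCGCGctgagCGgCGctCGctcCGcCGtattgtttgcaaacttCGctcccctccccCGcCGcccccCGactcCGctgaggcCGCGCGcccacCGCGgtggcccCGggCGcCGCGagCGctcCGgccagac
Fzd5: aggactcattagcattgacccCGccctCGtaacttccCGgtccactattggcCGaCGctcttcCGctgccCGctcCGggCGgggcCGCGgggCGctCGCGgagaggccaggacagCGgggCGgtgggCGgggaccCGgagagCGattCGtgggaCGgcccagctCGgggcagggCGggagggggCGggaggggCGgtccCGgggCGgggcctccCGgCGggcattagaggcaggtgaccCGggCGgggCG
Wnt8b: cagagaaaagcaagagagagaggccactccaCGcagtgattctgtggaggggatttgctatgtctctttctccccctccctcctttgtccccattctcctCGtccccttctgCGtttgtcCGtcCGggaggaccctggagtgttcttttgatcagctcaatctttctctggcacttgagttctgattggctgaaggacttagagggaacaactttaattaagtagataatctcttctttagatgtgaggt
These stretches held 36 CG dinucleotides in Wnt2b, 41 in Wnt3a, 28 in Wnt6, 37 in Fzd10, 32 in Fzd5 and 5 in Wnt8b. Of the 27025 promoters in the table, 2.46% had at least as many as Wnt2b, 1.07% as Wnt3a, 7.26% as Wnt6, 2.12% as Fzd10, 4.39% as Fzd5 and 55.5% as Wnt8b. The Fzd10 and Fzd5 stretches lay within the range of these 3 ligands, which had been chosen for their high CpG counts. Wnt10b and Wnt1, fully covered too, had 96 and 79 CpG in the 2 kb around the start, against 120 to 127 in the 3 shown. Over the wider 2 kb around the start, mouse members had a median of 113 CpG against 64 for all genes, with 31 of 37 above that median, from 29 in Dkk4 to 197 in Wnt4. Human members had a median of 136 against 91, with 26 of 37 above.

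The value used throughout is coverage, the percentage of bases under at least 1 peak, over the promoter (1 kb on each side of the gene start) or over the gene span from start to end. The lists hold positions only, so peak height and sequencing depth are unknown, and a change in mark within a peak cannot be seen. The lists held 85121 to 167378 peaks covering 131 to 259 Mb of autosomes, and 30.4 to 41.4% of peaks had the commonest width of 501 bp, which alone gives a promoter coverage of 25.0%. HSPC WT H2AK119ub replicate 2 was the shortest H2AK119ub list in mouse, with 138 Mb against 166 to 174 Mb in the other 3 HSPC libraries and 234 to 259 Mb in mES cells, and mES KO H3K27me3 replicate 2 covered 148 Mb against 187 to 230 Mb in the other 3. HSPC KO H3K27me3 lists covered 21.7 and 24.3 Mb of chromosome X against 1.05 and 1.07 Mb in WT, and HSPC KO H2AK119ub lists 2.51 and 2.69 Mb against 0.541 and 0.329 Mb. The part of this in the autosomal values of either mark was not tested. Peak positions cannot show whether Tet2 or MBD6 themselves were lost. As a check of cell type, 6 of 8 pluripotency gene promoters had H3K27me3 peaks in all 4 HSPC libraries and 1 of 8 in all 4 mES libraries, where Pou5f1 and Nanog had none. Of 8 haematopoietic marker promoters, 5 had H3K27me3 peaks in all 4 HSPC libraries and 6 in all 4 mES libraries, with median coverages of 22.6 and 97.1%. Ptprc had none in either cell type, and Myb had none in HSPCs. H2AK119ub peaks did not follow this pattern. They lay at 7 of 8 pluripotency promoters in all 4 mES libraries and at 3 of 8 in all 4 HSPC libraries. Of the 8 haematopoietic promoters, 7 had them in all 4 libraries of each mouse cell type. In K562 cells, 5 of 8 marker promoters of that line had them in all 4 libraries. Of 6 fibroblast markers, which feeder cells would express, 6 were marked with H3K27me3 in all 4 mES libraries.

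Most members were marked in both mouse cell types. In each mES H2AK119ub library 37 of 37 promoters had a peak, against 69.2 to 70.3% of all genes, and mean promoter coverage was 86.3 to 91.3% against 43.7 to 44.8%. H3K27me3 reached 34 to 35 promoters in mES libraries and 36 in every HSPC library, against 37.6 to 50.9% and 60.5 to 62.7% of all genes. In HSPCs, 33 to 37 promoters had an H2AK119ub peak and mean coverage ran from 63.9% in WT replicate 2 to 81.3%, against 41.9 to 50.4% for all genes. A promoter peak was present in all 16 mouse libraries for 31 of 37 members against 21.3% of all genes. K562 cells had the sparsest marking, with peaks at 22 to 25 of 37 promoters and a mean coverage of 26.3 to 33.8%, against 34.7 to 43.1% and 15.7 to 21.1% for all genes. Peaks that lay over member starts were also wide, with medians of 8.46 to 11.9 kb for H3K27me3 in mES libraries and 11.6 to 13.3 kb in HSPC libraries, against 3.28 to 4.31 kb and 1.46 to 1.68 kb for all genes. For H2AK119ub the medians were 5.30 to 6.29 kb in mES and 3.16 to 4.79 kb in HSPC libraries, against 1.98 to 2.11 and 1.94 to 2.15 kb.

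**Figure D1:**
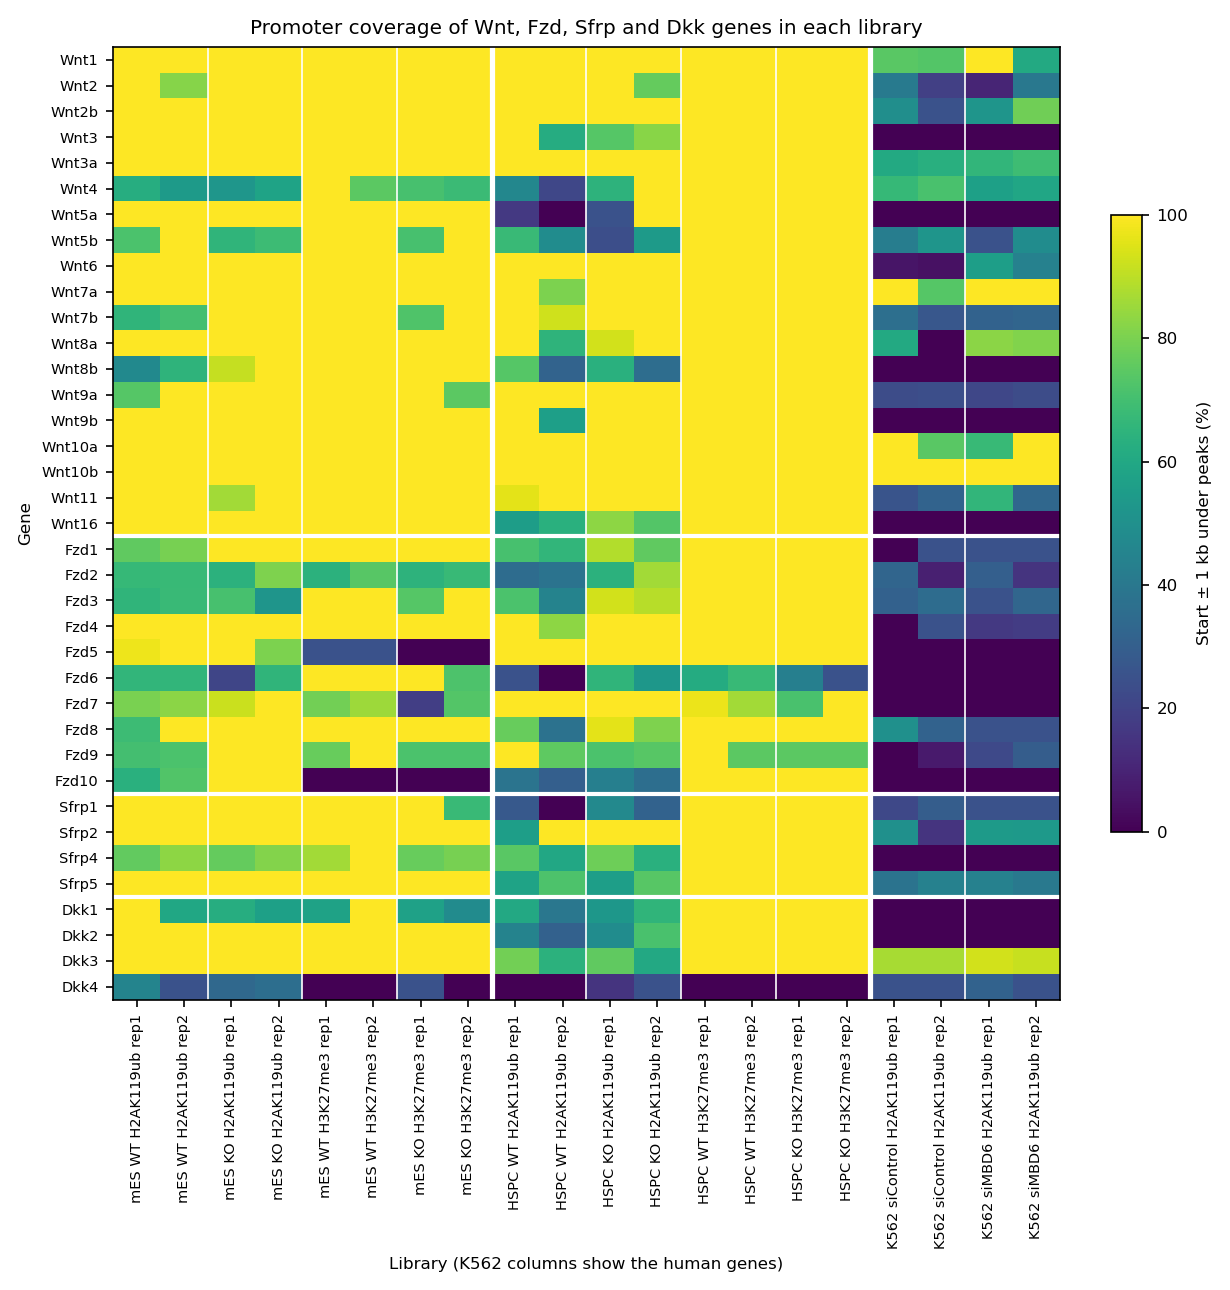
Promoter coverage (percent of the start ± 1 kb under peaks, colour scale) of each gene (rows, ordered Wnt, Fzd, Sfrp, Dkk) in each of 20 libraries (columns). Ligands are close to 100% in most mouse libraries, Fzd10 is at 0 in the 4 mES H3K27me3 libraries, Dkk4 is low throughout, and 12 genes are at 0 in all 4 K562 libraries.

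Ligand genes had a higher mean span coverage than each of the other families in every library, from 75.6 to 77.2% for H2AK119ub in mES cells and 43.9 to 57.3% in HSPCs, beside 56.0 to 59.8% and 37.1 to 53.7% for receptors. At promoters the order was not the same throughout, since Sfrp promoters had 94.0 to 95.8% and Wnt promoters 90.5 to 96.1% under H2AK119ub in mES libraries. The promoters of Wnt1, Wnt2b, Wnt3a, Wnt6, Wnt10a and Wnt10b were 100% covered in all 16 mouse libraries, against 1.62% of all genes. All 19 Wnt promoters had an H3K27me3 peak in every mouse library, and all 19 were fully covered in each of the 4 HSPC libraries. Wnt1, the founding member of the family, was the only member whose whole gene, 3981 bp on chromosome 15 from 98789857 to 98793837 (mm10), was covered by both marks in all 16 libraries, against 0.461% of all genes. Among ligands, mean coverage of the whole gene was lowest in Wnt2, in both cell types and marks. Its 41646 bp span had mean H2AK119ub coverages of 8.52% ± 1.98 (SD, n = 4) in mES cells and 4.64% ± 2.12 (SD, n = 4) in HSPCs, and H3K27me3 coverages of 13.2% ± 2.63 and 14.8% ± 0.373, although its promoter H2AK119ub averaged 95.5 and 94.1%. Wnt10a was covered over 100% of its span in mES cells under both marks and over 95.2% ± 3.84 (SD, n = 4) under H2AK119ub in HSPCs.

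Receptor genes differed widely among themselves. Fzd9, whose gene is 2293 bp long, had its whole span under H2AK119ub in all 8 mouse libraries. Fzd3, 70015 bp long, was covered over 1.21% ± 0.22 (SD, n = 4) of its span by H2AK119ub in mES cells and 3.31% ± 2.03 in HSPCs. A peak lay over its start itself in 1 of 4 mES H2AK119ub libraries and in all 4 HSPC libraries. Fzd10 and Fzd5 carried H2AK119ub with little or no H3K27me3 in mES cells. Fzd10 promoter coverage by H3K27me3 was 0, 0, 0 and 0% in mES libraries and 100, 100, 100 and 100% in HSPC libraries, and its span gave the same values. For H2AK119ub the Fzd10 promoter had 63.5 and 72.8% in mES WT, 100 and 100% in mES KO, 38.4 and 30.2% in HSPC WT and 43.1 and 36.1% in HSPC KO. For this receptor gene, H3K27me3 was thus absent from the lists in mES cells and complete in HSPCs, while H2AK119ub was lower in HSPCs. Fzd5, the receptor of several canonical ligands, had promoter H3K27me3 of 25.0 and 25.0% in mES WT, 0 and 0% in mES KO and 100% in all 4 HSPC libraries, beside H2AK119ub of 80.3 to 100% in all 8 mouse libraries. The 25.0% is a single peak of the commonest width.

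Antagonists differed within families. Sfrp5 and Sfrp2 promoters were 100% covered by both marks in all mES libraries, and Sfrp1 by H2AK119ub. Dkk2 and Dkk3 promoters were 100% covered by both marks in all mES libraries and by H3K27me3 in all HSPC libraries, yet their H2AK119ub in HSPCs was 31.1 to 71.2% and 60.4 to 78.8%. Dkk4, the member with the fewest CpG, had little promoter coverage. Its promoter H2AK119ub was 45.3, 25.0, 33.8 and 35.98% in mES libraries, 0 and 0% in HSPC WT and 15.0 and 25.0% in HSPC KO, and its H3K27me3 was 0% in all libraries except mES KO replicate 1 with 25.0%.

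Both marks met on most of the same promoters. In both libraries of each mark, peaks of both marks touched 35 of 37 promoters in mES WT, 34 in mES KO, 33 in HSPC WT and 36 in HSPC KO, against 42.7, 33.6, 47.9 and 51.9% of all genes. With at least 50% of the promoter covered in all of these libraries, the counts were 33, 31, 24 and 29, against 23.6, 20.7, 18.5 and 23.02% of all genes. In HSPC WT the 13 members below that level included the receptors Fzd2, Fzd3, Fzd6, Fzd8 and Fzd10 and the ligands Wnt4, Wnt5a, Wnt5b and Wnt8b.

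Of the ligands, 8 lie beside a partner as 4 neighbouring pairs, Wnt1 with Wnt10b, Wnt6 with Wnt10a, Wnt3 with Wnt9b and Wnt3a with Wnt9a, whose starts are 11.7, 19.6, 24.3 and 16.2 kb apart in mouse. In HSPC H3K27me3 libraries a single peak often lay over both starts, in 3 of 4 libraries for Wnt1 and Wnt10b (37.4 to 41.2 kb wide), 2 for Wnt6 and Wnt10a (53.0 and 53.1 kb), 3 for Wnt3 and Wnt9b (80.2 to 89.7 kb) and 4 for Wnt3a and Wnt9a (48.5 to 81.6 kb). Among the other mouse libraries this held once, for Wnt6 and Wnt10a in mES WT H3K27me3 replicate 2. Over the whole region from one gene's far end to the other's, HSPC H3K27me3 covered 94.8 to 99.5%, 97.5 to 100%, 96.4 to 99.0% and 88.2 to 91.4% of the 4 pairs, and H2AK119ub covered 76.6 to 91.7%, 89.9 to 94.4%, 40.7 to 54.8% and 57.7 to 71.9%. The pairs of a single region are not independent, since 1 peak can count for both genes. In K562 cells the regions of WNT1 with WNT10B and WNT6 with WNT10A were covered over 69.96 to 84.0% and 53.1 to 78.3%, whereas WNT3 with WNT9B had no peak in any library.

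The cell type comparison asked how the same genes were marked in pluripotent and blood progenitor cells, 4 libraries each with both genotypes in each set. H2AK119ub covered less of many members in HSPCs, among them Sfrp1, Wnt5a and Wnt7a, while H3K27me3 was higher at some, such as Fzd10, Fzd5 and Wnt3a, and lower at others. Over gene spans, all 4 HSPC libraries were below all 4 mES libraries for 20 of 37 members in H2AK119ub, where this held for 21.6% of all genes, and above for 0, where this held for 21.8%. Genes with no H2AK119ub peak over the span in any of these libraries could not be counted, 0 members and 13.4% of all genes. At promoters, 6 members were lower and 0 higher, against 8.92 and 16.2% of all genes. A promoter fully covered in any mES library could not count as higher in HSPCs. Under H2AK119ub, 18 members and 10.6% of all genes were full in all 4 mES libraries, so these promoter shares are not on an equal footing. For H3K27me3, 8 spans were higher and 4 lower in HSPCs, against 28.1 and 18.2%, and 3 promoters were higher and 1 lower, against 23.6 and 9.07%. By the exact permutation test over samples, two-sided with 70 arrangements, such a member has p = 0.0286, the smallest this design allows. Benjamini-Hochberg adjustment of these exact p-values over all 20807 genes gave 0.0660 for H2AK119ub spans, 0.114 for promoters, 0.0617 for H3K27me3 spans and 0.0874 for promoters, so that 0 members passed an adjusted 0.05. Cell type here cannot be told apart from culture, medium or the length of the lists.

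Of the 10 members with the largest H2AK119ub differences, over promoter or span, 5 were ligands, 4 antagonists and 1 the receptor gene Fzd10, whose promoter differed by -47.1 percentage points. Sfrp1 promoter coverage was 100% in all 4 mES libraries and 27.8, 0, 47.0 and 31.6% in HSPC WT 1, WT 2, KO 1 and KO 2, a mean difference of -73.4 percentage points. Its span coverage was 29.1, 34.2, 23.5 and 23.7% in mES and 3.34, 0, 5.53 and 4.91% in HSPCs. Its promoter H3K27me3, by contrast, was 67.8 to 100% in mES libraries and 100% in HSPC libraries.

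Wnt5a, a ligand that mostly signals without β-catenin, showed the same contrast. Its promoter H2AK119ub was 100% in all mES libraries and 16.5, 0, 25.3 and 100% in HSPCs, while H3K27me3 was 100% in all 8. Its span H2AK119ub was 72.7, 63.7, 68.6 and 73.6% in mES and 12.4, 0, 15.8 and 16.9% in HSPCs, so that the spans did not overlap although the promoters did, through KO replicate 2.

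Wnt7a spans were 86.8 to 94.7% under H2AK119ub in mES and 11.9 to 44.8% in HSPCs, a difference of -58.5 percentage points. The neighbours Wnt3 and Wnt9b, both of which had 100% of their promoters under H3K27me3 in all libraries of both cell types, had H2AK119ub spans of 95.2 to 99.3% and 87.0 to 96.8% in mES and 37.8 to 49.2% and 30.6 to 62.9% in HSPCs. Wnt4, a ligand of kidney and gonad development, had spans of 89.2 to 91.1% in mES and 28.9 to 64.2% in HSPCs, with promoters that overlapped. Among antagonists, Sfrp2 had 63.6 to 81.1% against 7.79 to 33.1%, and Sfrp5 95.9 to 100% against 20.99 to 79.3%. Dkk2 promoters were 100% covered in mES and 31.1 to 71.2% in HSPCs. None of the 37 members was higher in all HSPC libraries for H2AK119ub, over span or promoter, although promoters full in any mES library could not be.

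**Figure D2:**
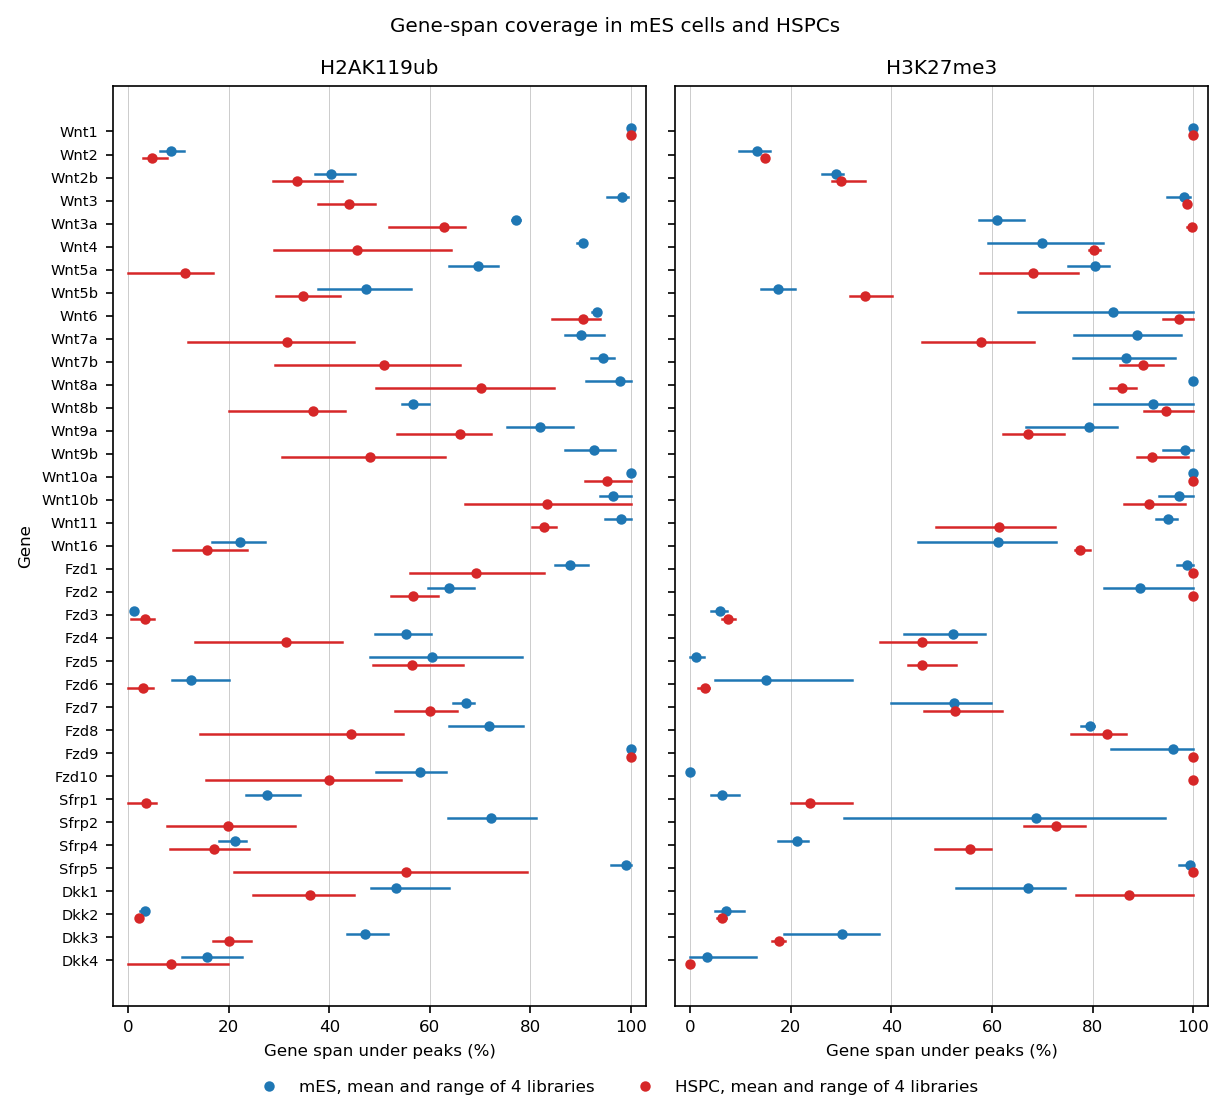
Gene-span coverage (percent, horizontal axis) of each gene (vertical axis) for H2AK119ub and H3K27me3. Points are means and lines the range of 4 libraries in mES cells (blue) and HSPCs (red), and the H2AK119ub lines of 20 genes lie wholly to the left in HSPCs while none lies wholly to the right.

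In H3K27me3 the members went both ways. Besides Fzd10 and Fzd5, the span of Wnt3a was 57.5, 66.3, 62.2 and 58.3% in mES and 100, 100, 98.8 and 100% in HSPCs, and Sfrp4 was 23.1, 23.4, 17.5 and 21.03% against 59.8, 57.7, 56.3 and 48.8%. Wnt5b, Wnt16, Sfrp1 and Dkk1 were also higher in HSPCs, by 16.4 to 20.04 percentage points. The Fzd2 promoter had 64.2, 74.2, 64.8 and 67.5% in mES and 100% in all HSPC libraries.

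Lower in HSPCs were Wnt11, with 96.9, 96.8, 92.6 and 93.8% against 72.6, 72.1, 51.9 and 48.8%, and Wnt7a, with 96.1, 97.5, 85.3 and 76.4% against 46.1, 54.1, 68.3 and 62.8%. Fzd6, a receptor linked to planar polarity, was lower too, with promoters at 100, 100, 100 and 71.9% against 61.7, 67.5, 43.1 and 25.0%. Wnt8a completed the set, with its span at 100% in all mES libraries and 83.4 to 88.7% in HSPCs.

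Among 54 other genes of the pathway, H2AK119ub spans were higher in HSPCs for 17 and lower for 13, where 21.8 and 21.6% of all genes were, and H3K27me3 spans higher for 20 and lower for 7, where 28.1 and 18.2% were. Of 14 cytoplasmic components, 8 had higher H2AK119ub spans in HSPCs, among them Apc, Axin1, Gsk3a and Ctnnb1, and 0 lower. Of 17 co-receptors and receptor modulators, 4 were higher and 8 lower. No difference between these lists, or between them and the members, was tested.

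The Tet2 comparison asked whether the marks moved with loss of the dioxygenase that oxidizes methylcytosine in DNA and RNA. With 2 libraries against 2 the exact two-sided permutation test cannot go below p = 0.333, so a member was counted only where both KO libraries lay above or below both WT libraries, and each count is set beside the share of all genes that met the same rule. In mES cells, H2AK119ub promoters were higher in KO for 6 of 37 members and lower for 2, against 10.6 and 9.25% of all genes, and spans higher for 7 and lower for 7, against 15.2 and 16%. Mean promoter coverage of the members was 90.5% ± 1.201 (SD, n = 2) in KO and 87.0% ± 1.01 in WT.

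The 6 higher promoters were 4 receptors and 2 ligands. Wnt8b, a forebrain ligand, had 47.3 and 65.02% in WT and 91.3 and 100% in KO. Wnt7b had 65.3 and 70.1% against 100 and 100%, and Fzd10 63.5 and 72.8% against 100 and 100%. Fzd9 had 70.2 and 71.8% in WT and 100% in both KO libraries, Fzd1 had 75.7 and 79.7% against 100 and 100%, and Fzd7 79.8 and 82.6% against 92.1 and 100%. These promoters were partly covered in WT and wholly or almost wholly covered in KO. When peaks within 1 kb of each other were joined, Fzd10 had no difference and Wnt8b a difference of -4.35 percentage points.

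Lower in KO were Fzd6, with 65.7 and 65.8% against 20.9 and 65.5%, which rests on KO replicate 1, and Wnt5b, with 71.8 and 100% against 65.5 and 68.4%. The Wnt5b start used here lies 95.0 kb from that of its principal transcript, where coverage was 100% in all 4 mES H2AK119ub libraries. Its span was 56.3 and 53.4% against 41.6 and 37.7%, and H2AK119ub coverage in the 5 Mb on each side of its start had a log2 ratio of KO to WT of -0.51, where the members had a median of -0.04. Span values of Sfrp1 were 29.1 and 34.2% in WT and 23.5 and 23.7% in KO, and those of Dkk1 48.3 and 50.6% against 50.7 and 63.8%.

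H3K27me3 in mES cells was more often lower in KO. Spans were lower for 17 of 37 members and higher for 3, against 22.1 and 5.53% of all genes, and promoters lower for 6 and higher for 0, against 16.4 and 1.96%. Against these backgrounds, the share of members with lower spans was 45.9% and with lower promoters 16.2%. Promoters fully covered in all 4 libraries could not be counted, 22 of 37 members and 12.1% of all genes. Genes with no peak over the span in any of the 4 libraries could not be counted, 1 of 37 members and 36.8% of all genes. The span shares are therefore not on an equal footing, and how much of the gap this makes was not tested. Sfrp2, an antagonist, had the largest difference, with span coverage of 94.3 and 93.0% in WT and 56.8 and 30.5% in KO, while its promoter was at 100% in all 4. Wnt6 spans were 94.7 and 100% against 76.2 and 65.1%, and Dkk3 spans 37.6 and 36.4% against 28.0 and 18.6%. Wnt7a spans were 96.1 and 97.5% against 85.3 and 76.4%, where the log2 ratio of coverage in the surrounding 5 Mb on each side was -0.59, the lowest of the members, whose median was -0.21. Coverage around most of these genes was thus lower in KO too, and its part in the result was not tested.

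At promoters, Fzd7 had 78.6 and 85.3% in WT and 18.4 and 73.1% in KO, and Dkk1 57.5 and 100% against 57.3 and 48.1%, with WT replicate 1 and KO replicate 1 almost equal. Wnt4 had 100 and 74.6% against 70.8 and 68.1%, Fzd9 76.6 and 100% against 71.6 and 71.8%, and Sfrp4 86.1 and 100% against 76.6 and 79.6%. Spans with more H3K27me3 in KO were those of Fzd6, with 4.84 and 4.95% in WT and 32.2 and 18.6% in KO, Wnt2, with 9.61 and 13.5% against 15.9 and 14.0%, and Dkk2, with 4.97 and 5.41% against 10.6 and 7.77%. Leaving out KO replicate 1, a setting added after seeing the data, leaves the short KO list alone. With 1 library left in KO the rule is easier to meet, so counts from that setting cannot be read against the shares of all genes.

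In HSPCs H2AK119ub coverage was more often higher in KO, most of all at Wnt5a, Wnt4 and several receptors. Promoters were higher for 11 of 37 members and lower for 1, against 18.3 and 5.32% of all genes, and spans higher for 17 and lower for 1, against 17.9 and 9.9%. Genes with no peak over the span in any library could not be counted, 0 of 37 members and 17.0% of all genes. The mean promoter difference between KO and WT was 10.7 percentage points for the members and 5.85 for all genes. WT replicate 2, the shortest list, was below WT replicate 1 for many of the members counted. Without it, the mean promoter difference of the members was 5.18 percentage points in place of 10.7, with 13 promoters higher and 5 lower and 18 spans higher and 7 lower, while without WT replicate 1 there were 21 and 1, and 32 and 1. With 1 library left in WT the rule is easier to meet, so that these counts cannot be read against the shares above.

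Wnt5a had promoter coverages of 16.5 and 0% in WT and 25.3 and 100% in KO, and Wnt4 46.1 and 21.3% against 64.7 and 100%. Among receptors, Fzd6 had 25.0 and 0% against 65.4 and 52.8%, Fzd2 35.3 and 38.2% against 64.3 and 86.3%, Fzd3 71.7 and 44.7% against 93.0 and 89.4%, and Fzd8 76.9 and 37.7% against 95.8 and 80.8%. Only for Fzd2 among these receptors were both WT libraries alike. Dkk4, without a peak in WT, had 15.0 and 25.0% in KO, and Sfrp1 27.8 and 0% against 47.0 and 31.6%. Fzd9 was lower in KO, with 100 and 75.1% against 71.7 and 73.9%.

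Spans with the largest differences were those of Wnt7a, 26.8 and 11.9% in WT and 42.8 and 44.8% in KO, Fzd10, 43.0 and 15.4% against 54.2 and 47.1%, Wnt7b, 51.3 and 29.2% against 66.1 and 57.2%, and Fzd1, 61.4 and 56.0% against 82.7 and 76.8%. Sfrp2 was higher as well, with 7.79 and 12.5% in WT and 33.1 and 26.1% in KO. Wnt8a was the exception, with 84.8 and 75.2% against 49.3 and 71.3%. Local coverage over 5 Mb on each side was higher in KO for the members as well, with a median log2 ratio of 0.20 and a highest value of 0.66 at Wnt16, and its part in the result was not tested.

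**Figure D3:**
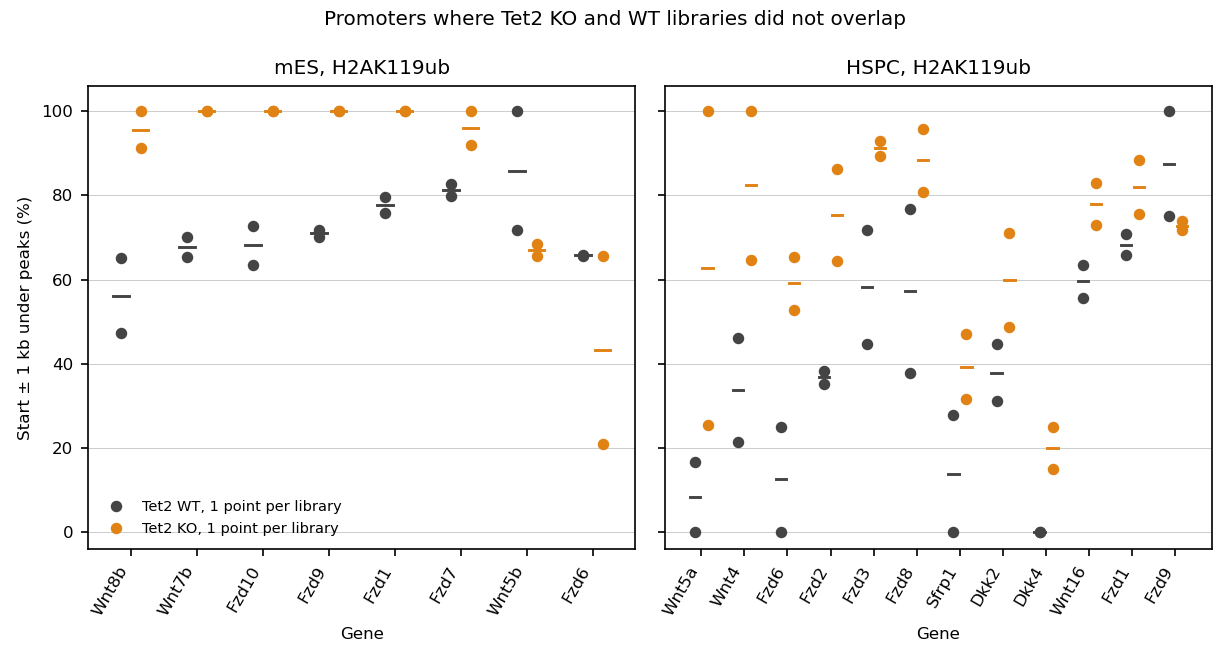
H2AK119ub promoter coverage (percent, vertical axis) of the genes (horizontal axis) whose Tet2 WT (grey) and KO (orange) libraries did not overlap, in mES cells and in HSPCs. Each point is 1 library and each short line a mean of 2, and in HSPCs the lower WT point is at 0 for Wnt5a, Fzd6, Sfrp1 and Dkk4.

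H3K27me3 left little room for a difference at HSPC promoters, since 33 of 37 were fully covered in all 4 libraries. Fzd6 alone was lower in KO and 0 were higher, against 9.27 and 7.66% of all genes. Its promoter had 61.7 and 67.5% in WT and 43.1 and 25.0% in KO. Spans were higher for 7 and lower for 8, against 12.4 and 19.4%. Wnt11 spans were 72.6 and 72.1% in WT and 51.9 and 48.8% in KO, Fzd4 56.7 and 49.7% against 37.7 and 40.2%, and Dkk1 100 and 86.2% against 76.8 and 85.7%. In the other direction, Wnt7a had 46.1 and 54.1% against 68.3 and 62.8%, and Wnt5a 57.6 and 67.4% against 70.2 and 77.1%. For Wnt11, Fzd4 and Wnt7a the gap between groups was wider than the spread within either.

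Of the 54 other pathway genes, H2AK119ub promoters in HSPCs were higher in KO for 16 and lower for 2, where 18.3 and 5.32% of all genes were. Among the 16, 9 were co-receptors or modulators, among them the R-spondins Rspo2, Rspo3 and Rspo4 and the co-receptor gene Lrp6. In mES cells 7 H2AK119ub promoters were higher and 5 lower, where 10.6 and 9.25% of all genes were, and H3K27me3 spans were higher for 3 and lower for 19, where 5.53 and 22.1% were.

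**Figure D4:**
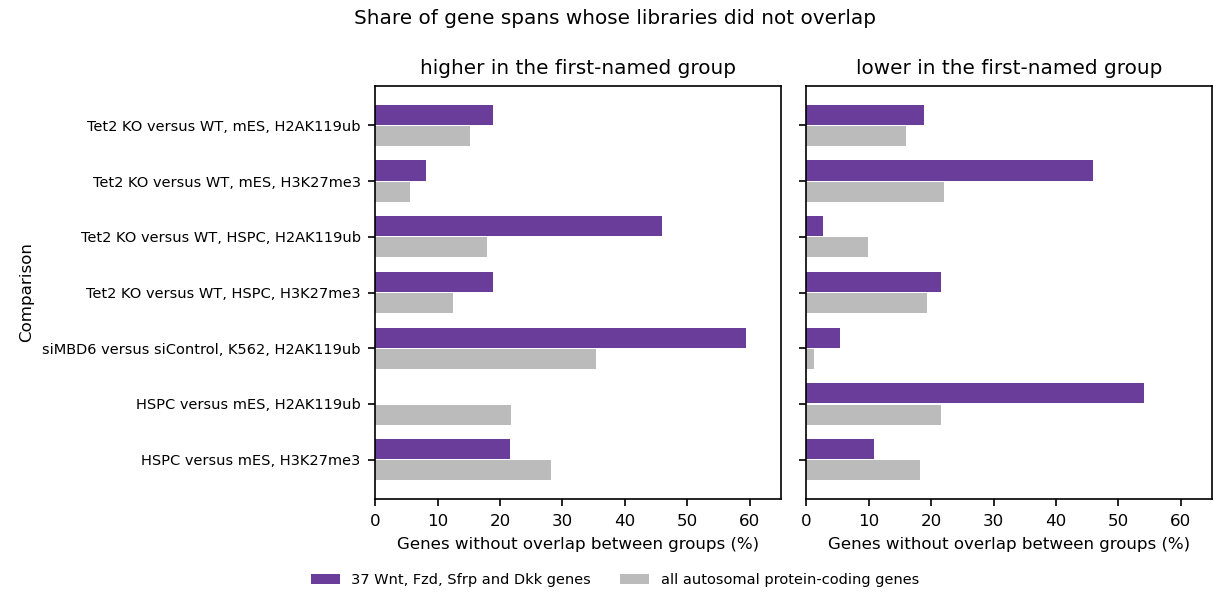
Share of gene spans (percent, horizontal axis) that were higher or lower without overlap between groups in each comparison (vertical axis), for the 37 genes (purple) and all autosomal protein-coding genes (grey). The purple bars for spans lower in HSPCs than mES cells (H2AK119ub, 54.1%) and lower in Tet2 KO mES cells (H3K27me3, 45.9%) stand beside 21.6 and 22.1% of all genes. Spans without a peak in any library of these comparisons could not be counted, 0 and 1 of the 37 genes and 13.4 and 36.8% of all genes.

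K562 cells carried H2AK119ub over a narrower set of WNT genes. WNT1, WNT4, WNT7B, WNT9A and WNT11 had the highest mean span coverage, from 73.5% ± 3.03 (SD, n = 4) in WNT11 to 93.5% ± 4.85 in WNT1, and WNT10B was the only member whose promoter was 100% covered in all 4 libraries. Within 1 kb of the gene start, 12 of 37 members had no peak in any library, against 48.1% of all genes. In the same window 21 had a peak in all 4, against 26.2%. The 12 were WNT3, WNT5A, WNT8B, WNT9B, WNT16, FZD5, FZD6, FZD7, FZD10, SFRP4, DKK1 and DKK2, and 7 of them, WNT3, WNT9B, FZD5, FZD6, SFRP4, DKK1 and DKK2, had no peak in the gene span either. Of the mouse orthologues of the 12, 10 had an H2AK119ub promoter peak in all 4 HSPC libraries. Over the K562 gene start itself, 7 to 11 of 37 members had a peak in a library, 18.9 to 29.7% against 17.4 to 23.9% of all genes.

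Some of these zeros depend on the start chosen. In 9 human members the gene start lies over 1 kb from that of the principal transcript, by 14.5 kb in WNT3, 18.4 kb in WNT9B, 109 kb in SFRP4 and 247 kb in DKK2, all of which were at 0% at both. WNT16 had 0% at the gene start and 96.3, 82.5, 100 and 100% at the principal start 3.63 kb away. WNT5B had 25.0 to 52.2% at the gene start and 0% in all 4 libraries at the principal start 87.2 kb away. Within 1 kb of principal starts 11 members had no peak in any library and 21 one in all 4. The 12 promoters without a peak at the gene start had a median of 36 CpG in 2 kb, with a range of 5 to 232. The 21 with a peak in all libraries had a median of 157, with a range of 32 to 211. Most low counts lay at gene starts away from the principal start, with 5 in DKK2, 6 in SFRP4, 16 in WNT16 and 36 in WNT3, WNT9B and WNT5A. WNT8B, with 16, had the same start in both. The starts of WNT3 and WNT9B lie 0.047 kb apart and share most of a window. CpG at principal starts was not counted, so the medians need not hold there. FZD7 and FZD10, with 232 and 211, were among the richest in CpG and had no promoter peak.

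The MBD6 comparison asked what knockdown of this PR-DUB partner did to H2AK119ub. Spans were higher in siMBD6 for 22 of 37 members and lower for 2, against 35.4 and 1.31% of all genes, and promoters higher for 8 and lower for 3, against 13.7 and 2.27%. Genes with no peak over the span in any library could not be counted, 7 of 37 members and 33.5% of all genes. Mean span coverage of the members was 34.1% ± 0.575 (SD, n = 2) in siMBD6 and 26.5% ± 0.289 in siControl, against 18.3 and 14.4% for all genes. The siMBD6 lists were longer, with 176 and 188 Mb against 131 and 131 Mb, and the log2 ratio of coverage in the 5 Mb on each side of the members had a median of 0.57. How much of the members' difference goes with list length was not tested.

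SFRP5, an antagonist, had span coverages of 30.8 and 30.4% in siControl and 56.9 and 72.4% in siMBD6, the largest span difference at 34.0 percentage points. FZD9 spans were 24.2 and 38.8% against 61.2 and 62.0%, and WNT6 spans 48.1 and 44.6% against 66.0 and 81.0%. FZD10, with no peak in siControl, had 28.2 and 20.6% in siMBD6. WNT8A had 51.0 and 22.9% against 54.0 and 60.3%, WNT7A 53.8 and 51.5% against 71.9 and 65.1%, and SFRP1 30.7 and 29.7% against 44.1 and 46.0%. Lower in siMBD6 were DKK4, with 29.2 and 15.8% against 14.0 and 9.06%, and FZD8, with 2.32 and 3.88% against 0.691 and 0.963%.

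At promoters, WNT6 stood out with 5.60 and 4.35% in siControl and 56.1 and 43.8% in siMBD6. WNT8A had 60.6 and 0% against 82.6 and 81.0%, so the siControl libraries were themselves far apart. WNT2B had 49.2 and 25.0% against 52.2 and 78.3%, WNT11 25.8 and 31.7% against 66.0 and 33.3%, and SFRP2 50.1 and 15.1% against 54.5 and 53.7%. FZD9 had 0 and 7.15% against 22.2 and 29.5%. The promoter of WNT4 was lower in siMBD6, with 67.2 and 71.1% against 56.7 and 59.1%, while its span was higher, with 86.7 and 86.8% against 91.2 and 95.0%, and over 2 kb on each side the promoter difference turned to 1.70 percentage points.

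**Figure D5:**
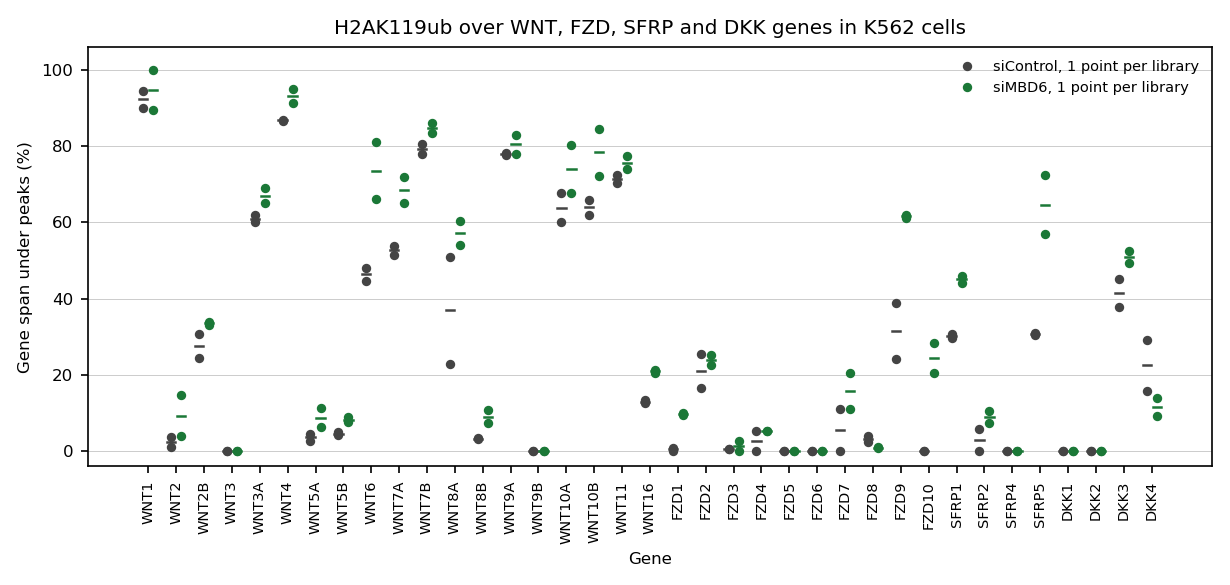
H2AK119ub gene-span coverage (percent, vertical axis) of the 37 genes (horizontal axis) in K562 cells with siControl (grey) and siMBD6 (green). Each point is 1 library and each short line a mean of 2, and SFRP5, FZD9, WNT6 and FZD10 show the largest gaps while 7 genes are at 0 in all libraries.

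Of the 54 other pathway genes, 30 had higher spans in siMBD6 and 0 lower, where 35.4 and 1.31% of all genes did and the siMBD6 lists were longer. The 30 included 11 of 17 co-receptors and modulators, 6 of 8 nuclear factors, among them TCF7, TCF7L1, TCF7L2 and LEF1, which carry β-catenin to DNA, and 6 of 8 feedback targets, AXIN2 among them. The rest were 4 of 14 cytoplasmic components, 2 of 6 other secreted antagonists and the secretion gene WLS. At promoters 5 were higher and 2 lower, where 13.7 and 2.27% of all genes were.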

How the data were processed

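CUT&Tag peak lists of 20 libraries were analysed. The authors deposited peak positions only, other columns holding names or placeholders, so coverage is computed here and sequencing depth is unknown. Mouse lists are in mm10 and human lists in hg38 coordinates. The submitters' processing notes name Trimmomatic 0.39, Bowtie2 2.4.1 and HOMER 4.9, while the methods name MACS2 in broad mode; which program called the deposited peaks is not given in the sources used here.

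Genes and starts were taken from GENCODE (mouse release M21, human release 44). Coverage is the percentage of bases under at least 1 peak, over 1 kb on each side of the start or over the gene span. Groups of 2 libraries were compared by whether they overlapped, since an exact test of 2 against 2 cannot reach 0.05. Cell types (4 against 4) were compared by a two-sided exact permutation test with Benjamini-Hochberg adjustment over all autosomal protein-coding genes. The counting was tested on simulated peaks. Named genes were those of the 10 largest differences per comparison, ranked by the larger of promoter and span (between genotypes or siRNAs, counting only a measure whose groups did not overlap, and between cell types counting both for all members), those without peaks, the 5 highest and 5 lowest spans and 4 neighbouring pairs, with others given as values. Alternatives were wider promoters, principal starts, wider or joined peaks, equal peak numbers, a minimum difference of 10 percentage points, single libraries left out and a replicate block. Same-numbered libraries did not deviate together, with correlations of -0.134 to 0.0314, and were treated as unpaired. Members and lists were chosen with earlier results of these data known. Python 3.11.15, numpy 2.4.6, pandas 2.3.3, matplotlib 3.10.9 and bedtools 2.31.1 were used.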

Additional observations from a re-analysis of the deposited data

Results flagged for a closer look

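In 9 cases both Tet2 KO libraries lay on one side of both WT libraries in mES cells and on the opposite side in HSPCs. The share of all genes that met this rule was not counted, nor were members that moved the same way in both. The 9 cases can therefore not be read as particular to these genes. Taken singly, 16% of all genes had lower H2AK119ub spans in KO mES cells, and 17.9% had higher ones in KO HSPCs. The values given are the KO minus WT difference in HSPCs less that in mES cells, in percentage points, and none of these differences between cell types was tested. For H2AK119ub promoters they were 69.1 for the receptor gene Fzd6, lower in KO mES cells and higher in KO HSPCs, and -43.8 for Fzd9, which went the other way. For H2AK119ub spans they were 10.6 for Fzd7, 11.6 for the antagonist gene Sfrp1 and 24.7 for the ligand gene Wnt5b, all lower in KO mES cells and higher in KO HSPCs. For H3K27me3 spans they were -21.9 for Fzd6, higher in KO mES cells and lower in KO HSPCs, and 11.2 for Sfrp1, 31.4 for Wnt7a and 21.2 for Wnt7b, all lower in KO mES cells and higher in KO HSPCs. The Fzd6 promoter value rests on mES KO replicate 1, at 20.9%, since replicate 2 at 65.5% was close to both WT libraries, and the HSPC H2AK119ub values include the short WT replicate 2 list.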

How the results depend on the processing

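Of the alternative values for genes counted as different, 536 moved by less than the spread between libraries, 36 moved by more and 2 turned in direction: the Wnt8b promoter in mES H2AK119ub with peaks within 1 kb joined, at -4.35 percentage points, and the WNT4 promoter in K562 cells with 2 kb on each side, at 1.70. In promoter counts and means, the following moved by more than 1.5 times or more than the spread, and the cause was not tested. With 2 kb on each side, the mean mES H2AK119ub difference was 2.13 percentage points, 2 and 3 promoters were higher and lower in KO HSPCs for H3K27me3, 14 were higher in siMBD6 cells and 1 was higher in HSPCs than mES cells for H2AK119ub. At principal starts, the mES H2AK119ub mean was 4.93 and 0 promoters were lower. With peaks joined, 0 were lower in KO for H2AK119ub in either mouse cell type, the mES H3K27me3 mean was -3.22 and 2 were lower for H3K27me3 in HSPCs. With peaks of at least 1 kb, the HSPC H3K27me3 mean was -2.24. Leaving out single libraries, which makes the groups easier to separate by construction, gave 3 to 5 lower for mES H2AK119ub, 0 to 1 higher for mES H3K27me3, 13 to 21 higher and 1 to 5 lower for HSPC H2AK119ub, 0 to 1 higher and 1 to 2 lower for HSPC H3K27me3 and 4 to 7 lower in siMBD6 cells. Between cell types it gave 0 to 1 higher for H2AK119ub and 3 to 5 higher for H3K27me3. For spans, settings added after seeing the data gave 18 to 26 lower for mES H3K27me3 and 18 to 32 higher for HSPC H2AK119ub. With a replicate block, 2 promoters were lower for HSPC H2AK119ub and 5 in siMBD6 cells, and all other counts stayed within 1.5 times. The crossed pairing of mES H3K27me3 libraries, added after seeing the data, gave 0 higher and 6 lower, as did the pairing by number. Peak lists without heights limit every value to presence of a peak.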
